A study of Mus musculus with 12 samples.

Results

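The genes described here are the endothelins, their receptors and their converting enzymes: Edn1, Edn3, Ednra, Ednrb, Ece1 and Ece2. They were picked by symbol and are 6 of the 55401 genes counted. Edn3 was included because its level after pressure overload was already known to be high in wild type ventricles and lower in mutant ones, so its values are given as a description without a test. Transcripts were sequenced from the left ventricle of mice in 4 groups of 3 libraries. The T497A TAC group carried the Prkca T497A mutation and underwent transverse aortic constriction (TAC), which narrows the aorta and loads the left ventricle with pressure. The wild type TAC group had the same operation on mice without the mutation. The T497A sham and wild type sham groups had the mock operation. The operations were done at 10 weeks of age, TAC over a 27-gauge needle, and ventricles were taken 5 weeks later, at 15 weeks. Prkca encodes protein kinase C alpha, and the substituted threonine sits in its activation loop. How many alleles carry the mutation, and whether each library came from its own animal, is not given in the sources used here. The p-values therefore measure the spread between these libraries, which may be technical.

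Endothelins are short secreted peptides. They are made as long precursors, cut by furin-type proteases to big endothelin and then by the converting enzymes to the active peptide. Edn1 is the main product of endothelial cells and a strong vasoconstrictor, while endothelin 3, the product of Edn3, is best known for guiding neural crest cells that form melanocytes and the enteric nervous system. The type A receptor prefers endothelin 1 and, in vascular smooth muscle and heart muscle, couples through Gq to phospholipase C and protein kinase C. The type B receptor binds both peptides alike, releases nitric oxide and prostacyclin from endothelium and clears endothelin from the circulation.

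The start regions of 3 members are shown to set the members that moved together beside one that did not. Edn3 and Ednrb were high in the same libraries, and Edn1, the other ligand, did not share that pattern. Each is the RefSeq window (GRCm38.p6) of 250 bases before to 50 bases after the annotated start, read along the gene's strand, and all 6 member symbols had an entry. Capitals mark matches, on either strand, to any of 6 short motifs. The motif of GATA factors was searched as AGATAA. For AP-1, a factor that answers growth signals, the form TGACTAA was searched and no other form of its motif. The hypoxia response motif was taken as ACGTG. For Sp1, which binds many promoters, the letters were GGGCGG. The NFAT motif, bound by factors that calcineurin activates, was GGAAA. The last was an E-box of the form CAGCTG.
Edn1, chr13:42301226-42301525, plus strand: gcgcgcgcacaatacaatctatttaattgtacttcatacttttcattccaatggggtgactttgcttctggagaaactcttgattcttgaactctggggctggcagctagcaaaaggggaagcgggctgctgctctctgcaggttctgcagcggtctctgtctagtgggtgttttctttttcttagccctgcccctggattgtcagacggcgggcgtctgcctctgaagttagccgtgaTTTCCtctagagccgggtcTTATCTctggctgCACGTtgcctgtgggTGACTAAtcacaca
Edn3, chr2:174760369-174760668, plus strand: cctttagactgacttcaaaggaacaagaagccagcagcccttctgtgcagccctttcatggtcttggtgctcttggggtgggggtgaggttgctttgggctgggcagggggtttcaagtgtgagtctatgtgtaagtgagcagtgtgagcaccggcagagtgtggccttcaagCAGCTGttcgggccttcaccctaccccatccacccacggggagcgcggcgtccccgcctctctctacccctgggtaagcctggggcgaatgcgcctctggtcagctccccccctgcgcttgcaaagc
Ednrb, chr14:103843652-103843951, minus strand: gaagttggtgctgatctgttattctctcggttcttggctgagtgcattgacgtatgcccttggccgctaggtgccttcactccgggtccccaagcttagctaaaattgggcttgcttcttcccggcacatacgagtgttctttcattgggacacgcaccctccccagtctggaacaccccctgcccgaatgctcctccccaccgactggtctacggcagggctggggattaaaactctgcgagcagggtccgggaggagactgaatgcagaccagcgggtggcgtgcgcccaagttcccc
Counted from the annotated start, the Edn1 window held the NFAT letters at position -11, the GATA letters at 9, the hypoxia letters at 22 and the AP-1 letters at 37. Of 32851 RefSeq windows of this length, 61.3% held the NFAT motif, 11.2% the GATA motif, 19.6% the hypoxia motif and 2.35% the AP-1 form searched. The Edn3 window held only the E-box, at position -77, which 16.3% of windows hold. The Ednrb window held none of the 6, Sp1 (35.7% of windows) included, and so shared no match with the Edn3 window. The motif letters were chosen with the sequences in view. A match describes letters and not a binding site, and a missing match describes only this window. The Ednrb start used by RefSeq lies inside the span that GENCODE gives the gene.

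Library totals ran from 36862004 to 46898344 counts. Levels are given in CPM, the usual scaling of counts by library size, here with TMM factors that correct for library composition. Of the 55401 genes, 15764 passed the filter on low counts (edgeR's filterByExpr, minimum count 10) and were tested. All members but Ece2 were among them. The labels name the tissue as left ventricle and the cell type as cardiomyocyte. Cardiomyocyte markers were abundant in every library (8 genes, summed levels of 39500 to 63000 CPM), and markers of other cells were present too. Endothelial markers summed to 832 to 1150 CPM over the libraries and fibroblast markers to 1790 to 3260 CPM, so the values describe whole tissue. In such tissue, fewer cells of a type and less RNA per cell cannot be told apart.

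Edn3 (chr2:174760619-174784042, plus strand, GRCm38) spanned 6 exon blocks with 4113 exonic bases, and its start region is printed above. Its level was 13.1, 12.9 and 12.4 CPM in T497A TAC ventricles, against 34.5, 32.5 and 33.5 CPM in wild type TAC. It was 6.52, 5.94 and 3.83 CPM in T497A sham, against 2.59, 4.33 and 1.74 CPM in wild type sham. Both TAC groups lay wholly above both sham groups, and the wild type TAC libraries lay wholly above the mutant ones. Of all tested genes, 7.71% had every TAC library above every sham library in T497A and 21.5% in wild type, and 13.6% had every mutant library below every wild type one after TAC. The 2 sham groups overlapped. The order of the levels was therefore wild type TAC, then T497A TAC, then the sham groups, whose ranges were not separated.

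In numbers, the mean level of Edn3 in the mutant was 12.8 ± 0.342 CPM after TAC against 5.43 ± 1.42 CPM after sham (SD, n = 3 each), 2.36-fold higher (log2 fold change 1.24 ± 0.26 SE). In wild type it was 33.5 ± 1.01 CPM after TAC against 2.89 ± 1.32 CPM after sham, a log2 fold change of 3.52 ± 0.27. After TAC the mutant level was thus 2.62-fold below that of wild type (log2 -1.39 ± 0.25). Subtracting the wild type TAC effect from the T497A one gave -2.28 ± 0.36 on the log2 scale for Edn3. After sham the difference ran the other way, with T497A 1.85-fold above wild type (log2 0.89 ± 0.27). These contrasts chose the gene, so no p is attached to them. The wild type values depend on a low baseline in which replicate 2 was highest. Without wild type sham replicate 2, the wild type TAC effect was 3.94, the difference between the genotypes' effects -2.70 and the sham difference 1.31 on the log2 scale. The counts behind these levels were 534 to 586 in T497A TAC, 1406 to 1574 after TAC in wild type, 174 to 262 in T497A sham and 60 to 194 in wild type sham. All 12 Edn3 counts were even numbers.

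**Figure D1:**
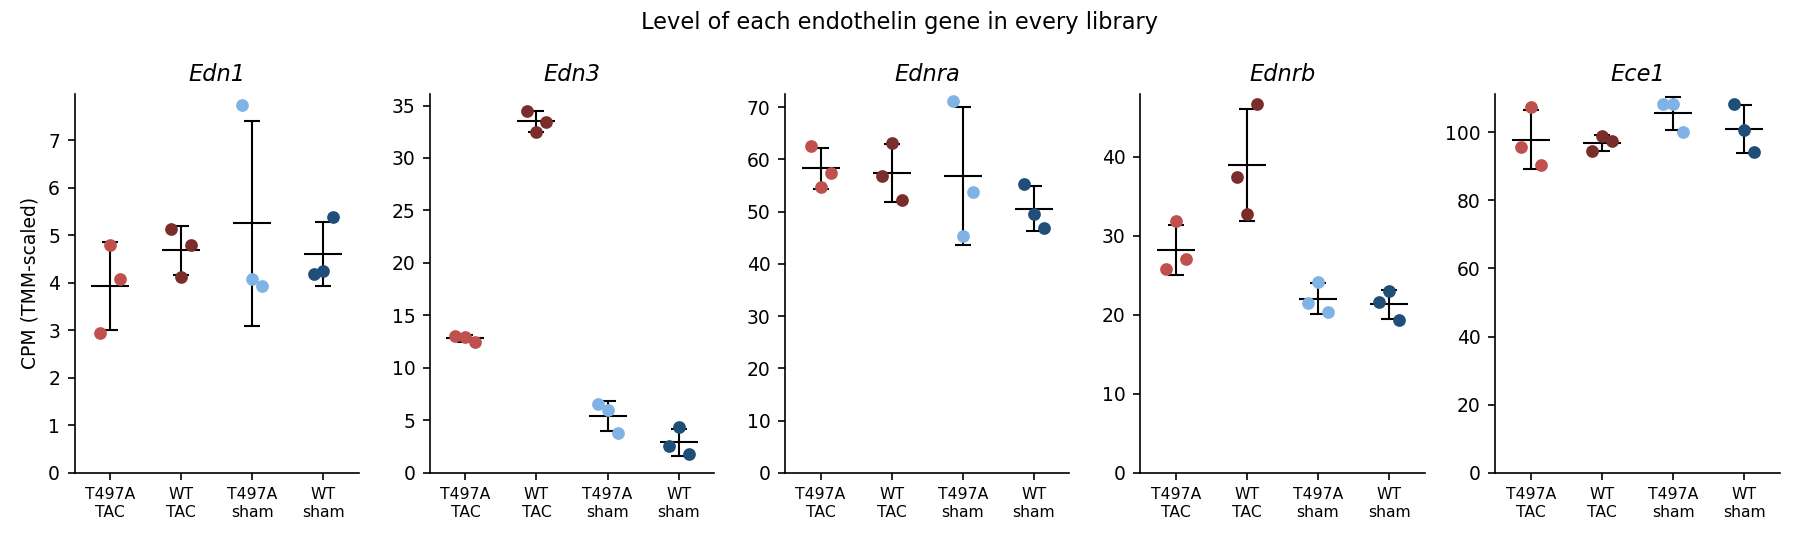
Level of each endothelin gene in CPM (vertical axes, each starting at 0) in the T497A TAC, wild type (WT) TAC, T497A sham and WT sham groups; points are libraries, horizontal bars the mean and error bars the SD (n = 3). Edn3 averaged 12.8 CPM in T497A TAC and 33.5 CPM in WT TAC, Ednrb averaged 28.2 and 38.9 CPM in the same groups, and for Edn1, Ednra and Ece1 the groups of each comparison overlap.

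Edn1 (chr13:42301476-42307990, plus strand, 5 exon blocks with 2139 exonic bases) encodes the ligand usually studied in heart failure. Its level was 2.95, 4.78 and 4.08 CPM in T497A TAC ventricles, 5.13, 4.11 and 4.80 CPM in wild type TAC, 7.74, 4.08 and 3.94 CPM in T497A sham and 4.18, 4.25 and 5.37 CPM in wild type sham. No group was separated from another, and T497A sham replicate 1 stood above the other 11 libraries. The TAC effect on the log2 scale was -0.42 ± 0.25 in T497A (adjusted p = 0.571) and 0.03 ± 0.25 in wild type (adjusted p = 0.952; edgeR's quasi-likelihood test adjusted by Benjamini-Hochberg over the tested genes). The wild type interval of -0.52 to 0.57 (95% confidence) still allows a change of that size in either direction. The genotypes differed by 0.19 ± 0.25 after sham (adjusted p = 1), a value that became -0.20 without T497A sham replicate 1, and by -0.25 ± 0.25 after TAC (adjusted p = 0.610). The difference between the TAC effects was -0.44 ± 0.36 (adjusted p = 0.591). Without T497A sham replicate 1 the TAC effect in T497A was -0.028 and the difference between the TAC effects -0.055 (adjusted p = 0.989 and 0.953). Edn2, the third ligand of the family, had 0 to 2 counts in every library, fewer than the 3 counts taken here as the limit of detection, and was not tested.

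The mix of ligand transcripts differed between the TAC and the sham libraries. Levels of different genes are compared here per kilobase of exon. Edn3 stood at 3.11 ± 0.083 CPM per kb in T497A TAC, 8.14 ± 0.246 after TAC in wild type, 1.32 ± 0.344 in T497A sham and 0.702 ± 0.321 in wild type sham. Edn1 stood at 1.84, 2.19, 2.45 and 2.15 CPM per kb in the same order. The share of Edn3 in the sum of both was 69.8, 58.4 and 61.3% in the T497A TAC libraries and 77.8, 80.4 and 78.4% in the wild type ones, 30.5, 43.1 and 33.6% in T497A sham and 24.3, 34.7 and 14.4% in wild type sham. Edn3 was thus the more abundant ligand transcript in each TAC library and the less abundant one in each sham library. The mean ratio of Edn3 to Edn1 was 1.77 in T497A TAC, 3.74 in wild type TAC, 0.567 in T497A sham and 0.340 in wild type sham. These shares contain the Edn3 values that chose the gene and were not tested.

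**Figure D2:**
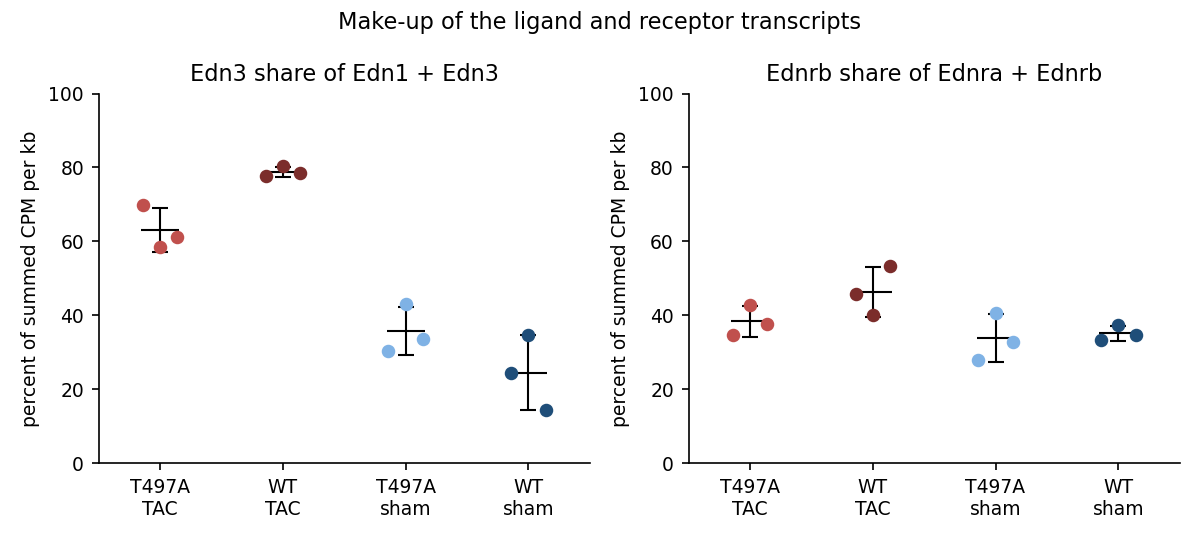
Left, Edn3 as a percentage of the summed Edn1 and Edn3 level; right, Ednrb as a percentage of the summed Ednra and Ednrb level, both from CPM per kb of exon. Points are libraries, bars the mean and SD (n = 3): the Edn3 share averages 63.2% in T497A TAC and 78.9% in wild type (WT) TAC, with every sham library below 50%, and the Ednrb share averages 38.3% and 46.4% in the same TAC groups.

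Ednrb, the type B receptor gene (chr14:103814625-103844402, minus strand, 8 exon blocks with 4266 exonic bases), rose after TAC in wild type ventricles. It stood at 25.8, 31.8 and 27.1 CPM in T497A TAC, at 37.5, 32.8 and 46.6 CPM in wild type TAC, at 21.4, 24.2 and 20.4 CPM in T497A sham and at 21.6, 23.0 and 19.3 CPM in wild type sham. Within each genotype every TAC library was above every sham library, and after TAC every mutant library was below every wild type library. The order of the levels followed that of Edn3, with much smaller distances. The gap between the TAC groups was narrow, 31.8 CPM for the highest T497A library against 32.8 CPM for the lowest wild type one.

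In T497A the level of Ednrb was 28.2 ± 3.17 CPM after TAC against 22.0 ± 1.97 CPM after sham, 1.28-fold higher (log2 0.36 ± 0.13, 95% confidence interval 0.09 to 0.63). That difference did not pass the adjusted threshold (unadjusted p = 0.0134, adjusted p = 0.293, edgeR's quasi-likelihood test). None of the 4 tested members was called in T497A, where 0.114% of all tested genes were called and 7.71% had every TAC library above every sham library. The rise of Ednrb in wild type was 1.83-fold, to 38.9 ± 7.04 CPM after TAC against 21.3 ± 1.83 CPM after sham (log2 0.87 ± 0.13, interval 0.60 to 1.14, adjusted p = 0.0002933). Leaving out any 1 library gave log2 values of 0.72 to 0.98 and adjusted p of 0.0001585 to 0.002364. Ednrb was the only 1 of the 4 tested members called in wild type. In that comparison 25% of all tested genes were called, 12.3% as higher, and 21.5% had every TAC library above every sham library, so the count of members is no more than the share of genes in general. At an unadjusted p under 0.05, 1837 genes passed in T497A and 5719 in wild type, and with no filter on low counts Ednrb was called in T497A (adjusted p = 0.0428). Averaged over genotypes, Ednrb rose 1.53-fold (log2 0.61 ± 0.09, adjusted p = 0.000323) in a comparison that called 22.4% of all tested genes.

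Between genotypes, Ednrb was 1.38-fold lower in T497A than in wild type after TAC (log2 -0.46 ± 0.13, interval -0.73 to -0.19, adjusted p = 0.0365). This was again 1 of the 4 tested members, in a comparison that called 8.7% of all tested genes, 4.06% as lower, and in which 13.6% had every mutant library below every wild type one. The call was lost without T497A TAC replicate 1 (adjusted p = 0.135), T497A TAC replicate 3 (0.114), wild type TAC replicate 1 (0.0663) or wild type TAC replicate 3 (0.177), and in a model of only the groups compared (0.0799). Without wild type TAC replicate 3, the library with the highest level, the log2 difference was -0.31. After sham the genotypes differed by 0.04 ± 0.13 (interval -0.23 to 0.32, adjusted p = 1), and none of the 4 members was called, against 0.0254% of all tested genes. The interaction, the T497A TAC effect less the wild type one, was -0.51 ± 0.18 for Ednrb (interval -0.89 to -0.13, adjusted p = 0.164). No tested member was called in that interaction, which called 1.57% of all tested genes. With no filter on low counts the interaction of Ednrb passed (adjusted p = 0.0196). A difference between the genotypes in their response of Ednrb was therefore not established at the threshold used.

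**Figure D3:**
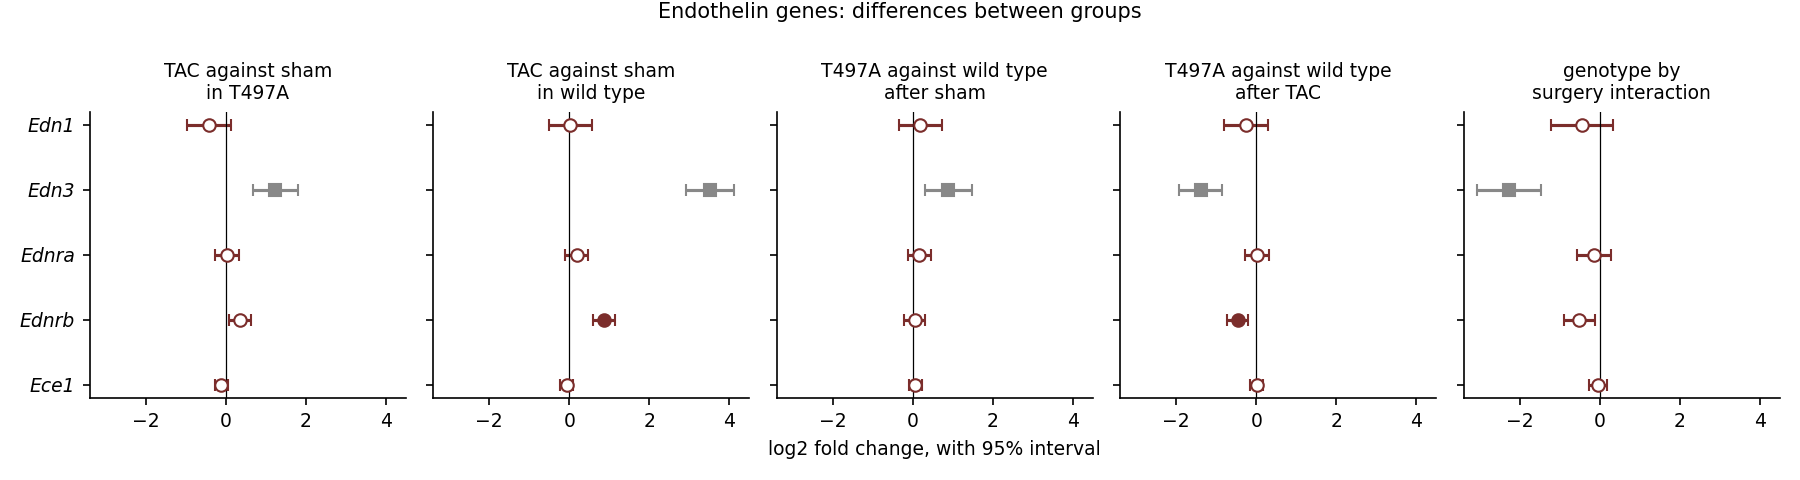
Log2 fold change (horizontal axes) of the endothelin genes in 5 comparisons, with 95% confidence intervals from edgeR over 3 libraries per group. Filled circles passed an adjusted p of 0.05 and open circles did not; grey squares mark Edn3, which was not tested, and Ednrb is filled in wild type (0.87) and between genotypes after TAC (-0.46).

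Markers of cells that use the type B receptor did not all move with it. Endothelial markers, 10 genes, summed to 852 to 1120 CPM in T497A TAC, 881 to 1060 CPM in wild type TAC, 832 to 1150 CPM in T497A sham and 868 to 1030 CPM in wild type sham. The groups overlapped, and none of the 10 was at 0 in any group. In wild type TAC 2 of the 10 rose, Esam (log2 0.39, adjusted p = 0.00257) and Robo4 (log2 0.30, adjusted p = 0.0443), the call of Robo4 holding in 9 of 19 alternative analyses. Endocardial markers, 4 genes, summed to 88.1 to 100 CPM in T497A TAC, 99 to 119 CPM in wild type TAC, 74.5 to 93.7 CPM in T497A sham and 82.9 to 88.9 CPM in wild type sham. In wild type 2 of the 4 rose after TAC, Npr3 1.53-fold and Plvap 2.00-fold. Fibroblast markers summed to 2240 to 2460 CPM in T497A TAC, 2840 to 3260 CPM in wild type TAC, 1790 to 2130 CPM in T497A sham and 1810 to 1860 CPM in wild type sham, with 5 of 9 genes higher after TAC in wild type. Macrophage markers summed to 153 to 208, 200 to 240, 141 to 165 and 132 to 146 CPM in the same order, with 6 of 8 genes higher. Of all tested genes, 12.3% were called as higher in that comparison. The fibroblast sums kept the TAC groups apart from each other and from the sham groups, as Edn3 and Ednrb did. Between the TAC groups 3 of the 9 fibroblast genes were called as lower in T497A and 6 were not called. Of all tested genes, 4.06% were called as lower there. Col1a1 averaged 183 CPM in T497A TAC and 447 CPM in wild type TAC. In the same order Pdgfra averaged 66.9 and 63.8 CPM and Gsn 974.5 and 939.7 CPM, so the sums do not stand for every gene of the list. The macrophage sums of T497A TAC overlapped those of both wild type TAC and T497A sham. In wild type, pericyte markers (7 genes) summed to 1170 to 1270 CPM after TAC, below the 1510 to 1650 CPM after sham. Among them 1 was called as higher and 1 as lower. Abcc9 averaged 331 CPM after TAC and 679 CPM after sham in wild type. In the same order Rgs5 averaged 641 and 709 CPM, and Pdgfrb 94.7 and 78.3 CPM. The pericyte sum therefore does not stand for every gene of that list. In T497A the pericyte sums were 1450 to 1630 CPM after TAC and 1470 to 1600 CPM after sham. Smooth muscle markers (6 genes) summed in wild type to 178 to 210 CPM after TAC and 198 to 285 CPM after sham. Lymphatic markers (6 genes) summed to 150 to 177 and 177 to 200 CPM there, with 3 called as higher. Among them Prox1 averaged 84.7 CPM after TAC and 131 CPM after sham in wild type, and Flt4 30.7 and 23.1 CPM. The lymphatic sum, too, does not stand for every gene of its list. The part of any of these cell types in the levels of Edn3 and Ednrb was not tested.

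Melanocyte and Schwann cell markers were examined because endothelin 3 and the type B receptor act in those lineages. The melanocyte list of 6 genes summed to 3.35 to 7.47 CPM in T497A TAC, 7.14 to 9.99 CPM in wild type TAC, 4.05 to 4.33 CPM in T497A sham and 2.09 to 6.01 CPM in wild type sham. Most of it was Dct, a pigment enzyme gene that rose 2.48-fold after TAC in wild type, to 7.63 ± 1.62 CPM against 3.06 ± 1.75 CPM after sham (log2 1.31 ± 0.36, adjusted p = 0.0213). The Dct call was lost with no filter on low counts and without wild type TAC replicate 1, wild type sham replicate 1 or wild type sham replicate 3, with an adjusted p of up to 0.0843. The other 5 genes of the list were low throughout. Mlana averaged 0.163 CPM in T497A TAC, 0.420 CPM in wild type TAC, 0.147 CPM in T497A sham and 0.171 CPM in wild type sham, with every wild type TAC library above every wild type sham one (log2 1.25 ± 0.67, adjusted p = 0.198). The same separation was seen in 21.5% of all tested genes. Pmel had a log2 effect of -0.22 ± 0.71 in wild type (adjusted p = 0.857). Tyr, Tyrp1 and Slc45a2 were not tested, and Tyr and Slc45a2 were at 0 in all 3 wild type TAC libraries and averaged at most 0.0555 CPM in the other groups. The part of pigment cells in the levels of Edn3 and Ednrb was not tested. The Schwann cell and nerve list of 8 genes summed to 14 to 14.8 CPM in T497A TAC, 13.7 to 16.4 CPM in wild type TAC, 15.8 to 22.7 CPM in T497A sham and 17.6 to 20.3 CPM in wild type sham. The glial factor gene Sox10, a member of that list, was lower on average after TAC in both genotypes. The difference was called by edgeR in wild type only.

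Ednra, the type A receptor gene (chr8:77663031-77724464, minus strand, 8 exon blocks with 5476 exonic bases), showed no separation of the groups. It stood at 62.5, 54.8 and 57.5 CPM in T497A TAC, at 56.9, 63.2 and 52.2 CPM in wild type TAC, at 71.2, 45.3 and 53.8 CPM in T497A sham and at 55.2, 49.5 and 46.9 CPM in wild type sham. The widest spread was in the T497A sham group, where replicate 1 was the highest of all 12 libraries and replicate 2 the lowest. Its log2 TAC effect was 0.04 ± 0.14 in T497A (interval -0.26 to 0.33, adjusted p = 0.948) and 0.18 ± 0.14 in wild type (interval -0.11 to 0.48, adjusted p = 0.369). The genotypes differed by 0.17 ± 0.14 after sham (adjusted p = 1) and by 0.02 ± 0.14 after TAC (adjusted p = 0.949), and the interaction was -0.15 ± 0.19 (adjusted p = 0.768). A gene on the opposite strand, 4933431K23Rik, shares 91 exonic bases (1.66%) with Ednra and had 82 to 228 counts. Since the use of strand in counting is not given in the sources used here, reads in that stretch could belong to either gene.

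Per kilobase of exon, Ednra was the more abundant receptor transcript on average in every group, at 10.6, 10.5, 10.4 and 9.23 CPM per kb in T497A TAC, wild type TAC, T497A sham and wild type sham. Ednrb stood at 6.61, 9.13, 5.16 and 4.99 CPM per kb in that order. In wild type TAC the libraries held 9.53 to 11.5 CPM per kb of Ednra, 7.68 to 10.9 of Ednrb and 7.90 to 8.39 of Edn3. Every Ednra value there was above every Edn3 value, and those of Ednrb overlapped both. The mean Ednra to Ednrb ratio was 1.63 in T497A TAC, 1.19 in wild type TAC, 2.03 in T497A sham and 1.85 in wild type sham. On the log2 scale the ratio differed by -0.68 between TAC and sham in wild type (2-sided exact permutation p = 0.1, the smallest that 3 against 3 libraries allow) and by -0.30 in T497A (exact p = 0.4). T497A and wild type differed by 0.48 after TAC (exact p = 0.2) and by 0.10 after sham (exact p = 0.7). The difference between the genotypes' TAC effects on the ratio was 0.38, with an exact p of 0.36 over 400 arrangements of genotype within surgery (smallest possible 0.005).

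Ece1 (chr4:137862237-137965229, plus strand, 23 exon blocks with 5300 exonic bases) encodes the main converting enzyme and was the most abundant member per kilobase, at 18.5 CPM per kb in T497A TAC, 18.3 in wild type TAC, 19.9 in T497A sham and 19.1 in wild type sham. Its log2 fold changes also had the smallest SE of the tested members. Its level was 95.7, 107 and 90.4 CPM in T497A TAC, 94.4, 98.9 and 97.4 CPM in wild type TAC, 108, 108 and 100 CPM in T497A sham and 108, 101 and 94.2 CPM in wild type sham. The groups overlapped in each comparison except T497A sham against wild type TAC, which differ in both factors and were not compared. The log2 TAC effect was -0.11 ± 0.08 in T497A (interval -0.27 to 0.05, adjusted p = 0.640) and -0.06 ± 0.08 in wild type (interval -0.22 to 0.10, adjusted p = 0.614). Genotype differences were 0.06 ± 0.08 after sham (adjusted p = 1) and 0.01 ± 0.08 after TAC (adjusted p = 0.939), and the interaction was -0.05 ± 0.11 (adjusted p = 0.866). Averaged over genotypes, the TAC effect was -0.08 ± 0.05 for Ece1, -0.19 ± 0.18 for Edn1 (-0.0012 without T497A sham replicate 1) and 0.11 ± 0.10 for Ednra (adjusted p = 0.291, 0.483 and 0.462).

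Ece2 (chr16:20629828-20646485, plus strand, 17 exon blocks with 5110 exonic bases), the second converting enzyme, was barely counted. It had 1, 2 and 0 counts in the T497A TAC libraries, against 4, 1 and 13 after TAC in wild type, and 0 in all 3 T497A sham libraries and 4, 2 and 0 in wild type sham. It failed the filter on low counts and was not tested, and its highest count, 13, came from wild type TAC replicate 3. A second protein-coding gene on the same strand, Gm49333, shares 2937 exonic bases (57.5%) with Ece2 and had 0 counts in every library. How reads that fall in both genes were treated is not given in the sources used here, so these counts do not measure how much Ece2 transcript was present.

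Across the 12 libraries, Edn3 and Ednrb were high and low together (Pearson r = 0.913 and Spearman rho = 0.916 on log2 CPM). This is a description: the libraries share their group structure, and with the group means removed r was 0.427. Edn3 had r = 0.391 with Ednra and -0.077 with Edn1 over the same 12 libraries. Ednra and Ednrb had r = 0.106, and -0.479 with the group means removed. Ece1 had r = -0.301 with Edn3 and -0.251 with Ednrb, but 0.398 and 0.472 with the group means removed. Over the 12 libraries the shared pattern among the members was thus limited to Edn3 and Ednrb. With the group means removed, that pair did not stand out among the members.

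**Figure D4:**
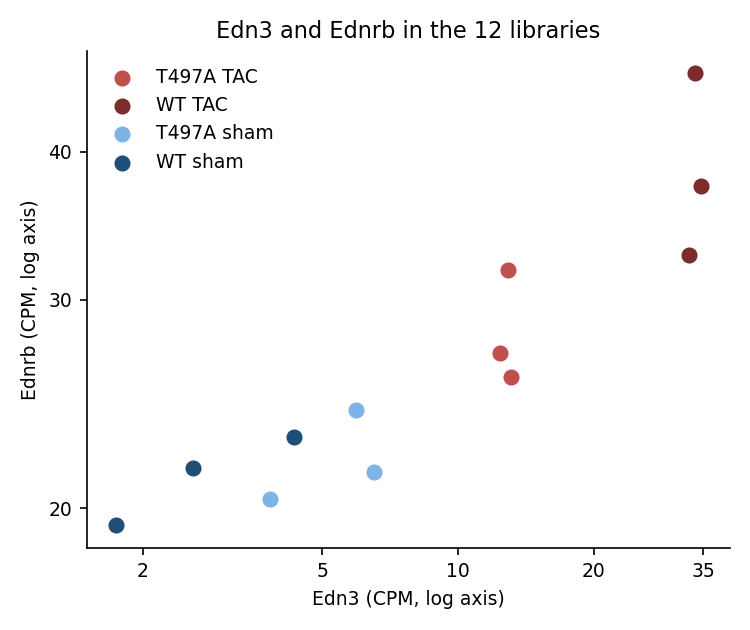
Ednrb (vertical) against Edn3 (horizontal), both in CPM on log axes, with 1 point per library coloured by group. The 3 wild type (WT) TAC libraries are at the upper right (32.5 to 34.5 CPM of Edn3), the 3 T497A TAC libraries between them and the sham libraries, and the 2 sham groups overlap at the lower left.

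By Pearson r of log2 CPM over the 12 libraries, among 11882 tested genes with a mean of at least 1 CPM, the 5 genes most like Edn3 were Gnao1 (r = 0.978), Comp (0.976), Itgbl1 (0.974), B4galnt1 (0.967) and Ufm1 (0.965). Gnao1 encodes a G protein alpha subunit, Comp a thrombospondin-family protein of the extracellular matrix, and B4galnt1 an enzyme of ganglioside synthesis. With the group means removed, r was 0.831 for Gnao1, 0.855 for Comp, 0.610 for Itgbl1, 0.731 for B4galnt1 and 0.503 for Ufm1. Comp had log2 TAC effects of 1.31 in T497A and 3.59 in wild type, close to the 1.24 and 3.52 of Edn3, whereas those of Gnao1 were 0.61 and 1.39. None of these 5 was among the 5 most alike by Spearman rho, so their rank depends on the measure. For Ednrb the nearest were Xirp2, an actin-binding protein gene of muscle (r = 0.971), Plcg2, a phospholipase C gene (0.971), and Fat1, a large cadherin gene (0.970), all higher after TAC in wild type by log2 values of 1.43, 1.05 and 0.76. The nearest to Edn1 were Rasl12, Ddx50 and Cdc42bpa (r of 0.789 to 0.796) and to Ednra Poc5, Rbm15b and Cript (0.831 to 0.872). Those nearest to Ece1 were Plcb3, Nfkbib and Abraxas1 (0.805 to 0.856).

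Genes up- and downstream of the endothelins were taken as 5 lists holding 71 genes, of which 66 were tested. After TAC 0 of the 66 were called in T497A, against 11 that rose and 8 that fell in wild type. The share called in wild type can be read against the 25% of all tested genes called there, and that in T497A against 0.114%. The median log2 fold change of the 66 was -0.01 in T497A and 0.06 in wild type, beside 0.01 over all tested genes in both. At this threshold the calls in wild type and their lack in T497A do not by themselves show a difference, which was tested as the interaction and is given below for the genes that passed it.

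In the list of peptide processing and breakdown, 5 of 8 genes were tested. After TAC in wild type 1 was called, as lower, beside 12.6% of all tested genes. This was Mme, the gene of neprilysin, a peptidase that degrades endothelin and natriuretic peptides. It fell 2.05-fold after TAC in wild type, to 11.0 CPM against 22.7 CPM after sham (log2 -1.04 ± 0.25, adjusted p = 0.0119), a call lost without wild type TAC replicate 3 (adjusted p = 0.054). In T497A it stood at 21.1 CPM after TAC against 32.2 CPM after sham (log2 -0.61 ± 0.24, adjusted p = 0.363). Furin, which cuts the precursors, had log2 TAC effects of -0.11 ± 0.09 in T497A and 0.07 ± 0.09 in wild type (adjusted p = 0.718 and 0.636).

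Among 21 G proteins, phospholipase C isoforms and receptor regulators, 5 rose and none fell after TAC in wild type. Of all tested genes, 12.3% were called as higher and 12.6% as lower in that comparison. The largest rise was that of Grk5, a kinase that desensitises G protein-coupled receptors, 2.14-fold, to 103 CPM after TAC against 47.9 CPM after sham (log2 1.10 ± 0.19, adjusted p = 0.00173). The arrestin genes Arrb2 and Arrb1, whose products bind the phosphorylated receptors, rose by log2 values of 0.74 ± 0.15 and 0.58 ± 0.11 (adjusted p = 0.00241 and 0.00209). The inhibitory G protein gene Gnai2 rose by 0.44 ± 0.09 (adjusted p = 0.00321), and Gnai3 by 0.36 ± 0.11 (adjusted p = 0.0279, not called without wild type TAC replicate 1, wild type sham replicate 1 or wild type sham replicate 2). Gnaq, the alpha subunit through which the type A receptor is known to act, had log2 effects of 0.11 ± 0.06 in T497A and 0.06 ± 0.06 in wild type (adjusted p = 0.546 and 0.564).

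Of 20 second messenger targets, 5 rose and 2 fell after TAC in wild type, beside 12.3% and 12.6% of all tested genes. The synthase genes of prostacyclin and nitric oxide, the relaxing products of type B receptor signalling, were both among those that rose. Any link of these rises to the receptor was not tested. Ptgis, prostacyclin synthase, rose 2.32-fold, to 22.8 ± 0.473 CPM after TAC against 9.86 ± 1.12 CPM after sham (log2 1.21 ± 0.12, adjusted p = 2.535e-05). Nos3, endothelial nitric oxide synthase, rose 1.48-fold (log2 0.56 ± 0.12, adjusted p = 0.00372). Prkcd, protein kinase C delta, rose 1.88-fold (log2 0.91 ± 0.18, adjusted p = 0.00241), while Trpc1, a cation channel gene, fell 1.34-fold (log2 -0.43 ± 0.12, adjusted p = 0.0157). The Trpc1 call was lost without wild type TAC replicate 1, wild type sham replicate 2 or wild type sham replicate 3. In T497A, Ptgis had a log2 effect of 0.28 ± 0.12, Nos3 of -0.01 ± 0.12 and Prkcd of 0.41 ± 0.18 (adjusted p = 0.400, 0.993 and 0.388).

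Of 13 regulators of endothelin gene transcription, 1 rose and 1 fell after TAC in wild type, beside 12.3% and 12.6% of all tested genes. Tgfb1, a cytokine known to induce Edn1 in cultured cells, rose 1.83-fold, to 34.3 CPM after TAC against 18.7 CPM after sham (log2 0.88 ± 0.20, adjusted p = 0.00908), beside Edn1 levels that did not separate. Gata6, a heart transcription factor gene, fell 1.33-fold (log2 -0.41 ± 0.10, adjusted p = 0.00638). Hif1a and Klf2, genes of the oxygen response and the shear stress response, had log2 effects of 0.64 ± 0.24 and 0.42 ± 0.28 in wild type (adjusted p = 0.0880 and 0.322).

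Of 9 neural crest partners of the type B receptor, 7 were tested and 4 fell after TAC in wild type, where 12.6% of all tested genes were called as lower. Gfra1, the receptor subunit for glial cell line-derived neurotrophic factor, fell 2.86-fold, to 4.05 ± 0.539 CPM after TAC against 11.6 ± 2.04 CPM after sham (log2 -1.52 ± 0.18, adjusted p = 7.798e-05). Ret, its signalling partner, fell 2.46-fold (log2 -1.30 ± 0.17, adjusted p = 0.000124). Mitf, the pigment cell factor gene that heart muscle also expresses, fell 1.54-fold (log2 -0.62 ± 0.08, adjusted p = 0.000179). Sox10 fell by 1.09 on the log2 scale at a level under 2 CPM (adjusted p = 0.0245, not called without wild type TAC replicate 2, wild type TAC replicate 3 or wild type sham replicate 3). Its mean was 0.712 CPM after TAC and 1.52 CPM after sham in wild type. In T497A, where edgeR did not call it, the Sox10 mean was likewise lower after TAC, 0.569 CPM against 1.42 CPM after sham. These 4 genes thus went opposite to Edn3 and Ednrb in wild type. The other 3 tested genes of the list were not called there. Gdnf averaged 0.695 CPM after TAC against 0.311 CPM after sham, Kit 7.22 against 6.41 CPM and Zeb2 45.3 against 45.9 CPM. Cardiomyocyte markers fell in the same comparison, 7 of 8 called as lower, and their part in the falls of the 4 genes was not tested.

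**Figure D5:**
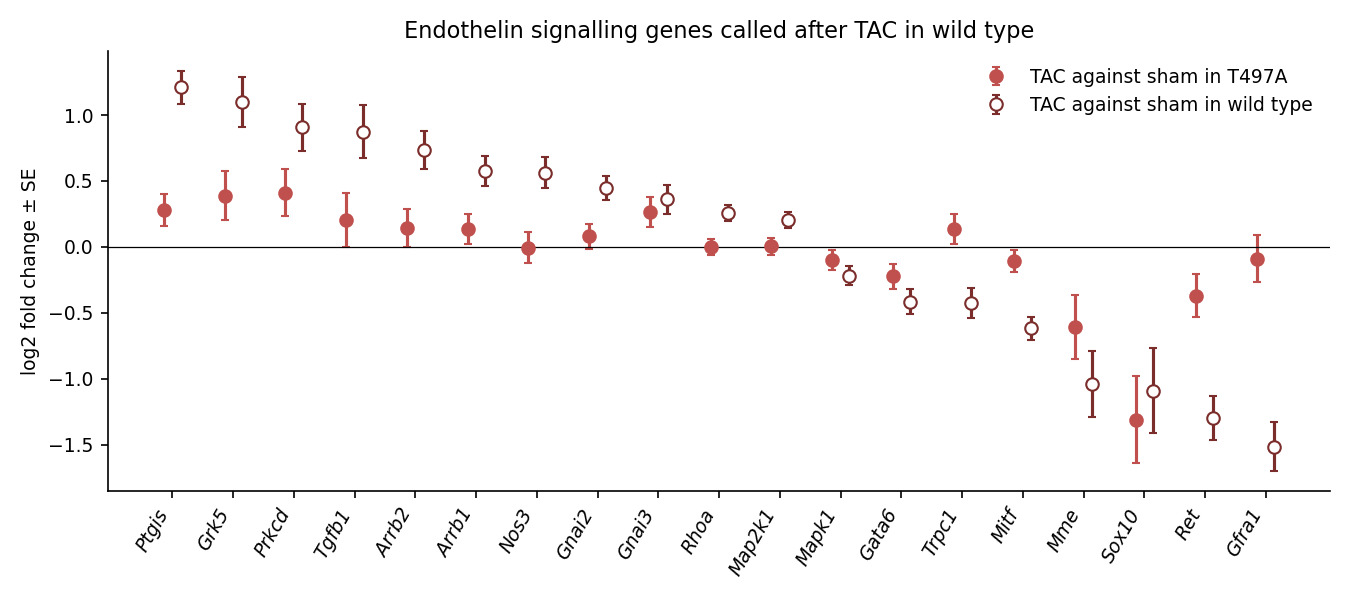
Log2 fold change (vertical axis) of TAC against sham, with SE as error bars, for the 19 endothelin signalling genes called after TAC in wild type. Filled points are T497A and open points wild type; none of the 19 was called in T497A, and Ptgis stands at 0.28 in T497A and 1.21 in wild type, Gfra1 at -0.09 and -1.52.

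After sham, 0 of the 66 signalling genes were called between genotypes, beside 0.0254% of all tested genes. After TAC, 5 were higher and 5 lower in T497A than in wild type, beside 4.64% and 4.06% of all tested genes. Gfra1 was 2.79-fold higher, with 8.90, 10.9 and 14.1 CPM in T497A TAC against 3.92, 3.58 and 4.64 CPM in wild type TAC (log2 1.48 ± 0.18, adjusted p = 0.0007224). Ptgis was 1.84-fold lower, with 10.8, 14.8 and 11.7 CPM in T497A TAC against 22.3, 23.1 and 23.1 CPM in wild type TAC (log2 -0.88 ± 0.12, adjusted p = 0.00142). The groups did not overlap for either gene. As for Ptgis, 13.6% of all tested genes had every mutant library below every wild type one after TAC. The share with every mutant library above is not given here. For Gfra1 and Ptgis the call held in all 19 alternative analyses, as did that of Ret (log2 0.93 ± 0.17, adjusted p = 0.00544). The calls of Mme (0.93), Trpc1 (0.47) and Mitf (0.42), all higher, and of Arrb1 (-0.50), Gnai2 (-0.35) and Map2k1 (-0.24), all lower on the log2 scale, held in 8 of 19 alternatives for Mme and 12 to 18 for the others. Each of these 6 was lost without wild type TAC replicate 3, and 1 or more of them also without any of the other TAC libraries, T497A sham replicate 2 or any wild type sham library. In the interaction, 2 of the 66 were called, beside 1.57% of all tested genes. The T497A TAC effect less the wild type one was 1.43 ± 0.25 for Gfra1 (adjusted p = 0.0199) and -0.93 ± 0.18 for Ptgis (adjusted p = 0.0234).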

How the data were processed

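Whole-number read counts per gene, not normalized, were deposited by the authors for 12 left ventricle libraries. Per the labels' protocols, an mRNA kit was used on total RNA and libraries were read from 1 end over 75 cycles. The submitters' processing notes name STAR 2.7.3a, Trim Galore 0.6.4, Subread 1.6.3 with featureCounts, limma 3.50.3 and the mm10 build. What settings and annotation they used, and whether strand was considered, is not given in the sources used here. Groups came from the labels. Titles share 1 replicate number, so replicate numbers here follow accession order and pair no libraries. Each title also carries a further number of its own, whose meaning is not stated. All libraries share 1 batch date. The chi-square per degree of freedom between replicates was 21.9 to 60.3, so no library was a copy.

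For counts, edgeR 4.0.16 was run in R 4.3.3: filterByExpr (minimum count 10), TMM, a robust glmQLFit over the 4 groups and glmQLFTest, with Benjamini-Hochberg adjustment over 15764 genes and a threshold of 0.05. The biological coefficient of variation was 17.2%. The SE is the absolute log2 fold change over the root of the F statistic, and intervals use the test's error degrees of freedom. The procedure was tested on simulated counts. Alternatives were other size factors, no filter, DESeq2 1.42.0, limma-voom 3.58.1, only the groups compared, no mitochondrial genes and each library left out. Halved counts were added after seeing the data. Ratios were tested by exact permutation of libraries.

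Positions and exon lengths came from GENCODE M21 (GRCm38), which matched 54349 of 55401 identifiers by ID, and start regions from RefSeq. The members, lists and marker genes were chosen with earlier results of these data known. Genes named are the members, the 5 nearest by r to Edn3 and the 3 nearest to each other tested member, and up to 4 called genes per signalling list and comparison with the largest fold change. Further genes of these lists (Furin, Gnaq, Gnai3, Hif1a, Klf2 and most of those called after TAC between genotypes) were chosen after their values were seen. Some called genes of the lists are not reported here.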

Additional observations from a re-analysis of the deposited data

Results flagged for a closer look

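For 2 of the endothelin signalling genes the TAC effect differed between the genotypes by a test of the difference itself. For Gfra1 the T497A TAC effect less the wild type one was 1.43 on the log2 scale (adjusted p = 0.0199, edgeR's quasi-likelihood test). It was called in 17 of 18 alternatives, with adjusted p of 6.3e-09 to 0.0574, and lost without wild type sham replicate 3. For Ptgis the difference was -0.932 (adjusted p = 0.0234), and it was called in 12 of 18 alternatives, with adjusted p of 4.44e-05 to 0.0654. The Ptgis call was lost without T497A TAC replicate 1 or 3, wild type TAC replicate 3, T497A sham replicate 3, or wild type sham replicate 1 or 3. Of the 4 tested endothelin members none differed in this way. Groups of 3 libraries are too small for a search for single outlying libraries.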

How the results depend on the processing

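No paired analysis was possible because every title carries the same replicate number and replicates were numbered in accession order. The 24 member results were recomputed under 448 alternatives in all, of which 425 kept the direction and the side of the threshold, 16 changed sign, 5 lost and 2 gained a call; none that changed sign was called. The 1 member called in wild type after TAC, and on average over genotypes, was called in all of them. Between genotypes after TAC the count of 1 became 0 in a model of only the groups compared and ran from 0 to 1 with single libraries left out. With no filter on low counts it was 1 in place of 0 in the interaction and 1 in place of 0 in T497A. Of the signalling genes, the 2 in the interaction became 6 with no filter and 6 with DESeq2, and 0 to 4 with single libraries left out; the 10 between genotypes after TAC became 6 in a model of only the groups compared and 3 to 11 with single libraries left out; and DESeq2 called 1 in T497A (Sox10, adjusted p = 0.0272) where edgeR called 0. Over single libraries left out, log2 values that changed sign ran from -0.20 to 0.36 (Edn1, sham), -0.043 to 0.15 (Edn1, wild type TAC effect), -0.10 to 0.23 (Ednra, T497A TAC effect), -0.032 to 0.30 (Ednra, sham), -0.042 to 0.096 (Ednra, genotypes after TAC), -0.29 to 0.050 (Ednra, interaction), -0.031 to 0.10 (Ednrb, sham), -0.057 to 0.064 (Ece1, genotypes after TAC) and -0.12 to 0.0035 (Ece1, interaction). Counts over all genes moved more: 18 in T497A became 331 with no filter, 296 with DESeq2, 0 with limma-voom, 0 with only the groups compared and 0 to 36 with single libraries left out; 248 in the interaction became 898, 847 and 40 to 517 (no filter, DESeq2, libraries left out); 4 after sham became 14, 11, 2 (limma-voom) and 1 to 7; and 1371 between genotypes after TAC became 463 to 1455. The cause was not tested.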

Other observations

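Edn3 had an even count in all 12 libraries, Ednrb in 11, Ednra in 8, Edn1 in 7 and Ece1 in 6. Over the table, 13382 genes had at least 10 counts in every library, and 256 of these (1.91%) were even in all 12. With even and odd counts equally likely and independent between libraries, 3.27 such genes would be expected. Counts were even in 11 or 12 libraries for 771 genes, and even in none or 1 for 33 genes. The share of even values was 67.7% among counts from 10 to below 100, 57.8% from 100 to below 1000, 51.8% from 1000 to below 10000 and 50.2% above. The cause was not tested. With all counts halved, the calls of the endothelin members were the same. Halving treats every gene alike and leaves fold changes nearly as they were, so it cannot show an effect limited to some genes. The share of counts from mitochondrial genes was 25.3 ± 0.770% in T497A TAC, 20.1 ± 0.698% in wild type TAC, 29.2 ± 1.48% in T497A sham and 26.9 ± 1.94% in wild type sham (SD, n = 3), and leaving these genes out kept every member call.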
